A study of Rattus norvegicus with 176 samples.

Results

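The glutathione S-transferases other than Gstp1 were followed across rat livers through 4 genes, Gsta3, Gstm1, Gstm2 and Gstt1. The genes were listed by name, and each was read from the probe set that the array annotation assigns to it. Where a gene has more than 1 probe set the brightest on average would stand for it, but each of the 4 genes had exactly 1. They are 4 of the 10411 genes named on the array: Gsta3 (gene ID 494500, with Gsta5 among its RefSeq synonyms), Gstm1 (24423), Gstm2 (24424) and Gstt1 (25260). GSTA3 is also an old synonym of Gstm1 and GSTA4 one of Gstm2, so the gene IDs and not the synonyms fixed the identities. A further probe set, which the array names for Gsta5 and Gsta2 together, was left out because it stands for several genes.

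The series holds 176 Affymetrix arrays of liver sections from F344 rats given clofibric acid (CA), a fibrate drug, with or without DEN. The labels do not spell DEN out; the abbreviation usually stands for the liver carcinogen diethylnitrosamine. CA groups were labelled 5j, 1m, 3m, 9m, 12m and 18m, with a further group labelled 18 without a unit and one labelled 18rev. The DEN-CA groups were 5j, 1m, 3m, 9m, 12m and 12rev, and the DEN groups were the same with an added group labelled -8. Control groups were -8, 5j, 1m, 3m, 9m, 12m, 18m, 12rev and 18rev. Sections tagged TU came from 9 CA rats and 7 DEN-CA rats that also had an untagged section, and sections tagged PERI came from 5 rats. The CA rats with TU sections belonged to 12m, 18m, the group labelled 18 and 18rev, and the DEN-CA rats to 9m, 12m and 12rev. The titles give 5000 ppm CA for every sample, controls included, so the arm was read from the source name. The tags rev, TU and PERI, the unit j and a suffix B on 46 of the 148 untagged arrays are not explained in the labels, and the dose, route and date of DEN are not given there. The 30 untagged groups held 3 to 6 rats, 1 array each.

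Glutathione S-transferases join the tripeptide glutathione to electrophilic compounds, which makes them more soluble and ready for export, and they also bind bile pigments and steroids. Hepatocytes hold several classes side by side. Gsta3 encodes an alpha-class subunit, described in rats under the name Yc2 as active towards the reactive epoxide of aflatoxin. Gstm1 and Gstm2 encode mu-class subunits that are abundant in rat liver, and Gstt1 encodes a theta-class enzyme that acts on small halogenated molecules. Fibrates activate PPARalpha, a nuclear receptor that switches on the genes of fatty acid oxidation in rodent liver.

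RefSeq places Gsta3 on chromosome 9 (31154989 to 31180653), Gstm2 and Gstm1 side by side on chromosome 2 (198312179 to 198316962 and 198338005 to 198346007) and Gstt1 on chromosome 20 (12856068 to 12873020), all in the GRCr8 build. The promoter windows of 3 members, 250 bases before to 50 after the annotated start, are shown because the first was higher at 1m and the other 2 were lower on average in drug-treated rats, as described below. Capitals mark a match to TGACNNNGC, the core of the antioxidant response element. The windows are Gsta3 at chr9:31154739-31155038 on the plus strand, Gstm1 at chr2:198343334-198343633 on the minus strand and Gstm2 at chr2:198316868-198317167 on the minus strand.
Gsta3: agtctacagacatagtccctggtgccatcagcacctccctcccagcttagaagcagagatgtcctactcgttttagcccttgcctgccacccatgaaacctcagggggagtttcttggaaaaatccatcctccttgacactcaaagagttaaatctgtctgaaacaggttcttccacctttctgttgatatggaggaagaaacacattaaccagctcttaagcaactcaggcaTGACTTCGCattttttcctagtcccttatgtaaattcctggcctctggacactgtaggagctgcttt
Gstm1: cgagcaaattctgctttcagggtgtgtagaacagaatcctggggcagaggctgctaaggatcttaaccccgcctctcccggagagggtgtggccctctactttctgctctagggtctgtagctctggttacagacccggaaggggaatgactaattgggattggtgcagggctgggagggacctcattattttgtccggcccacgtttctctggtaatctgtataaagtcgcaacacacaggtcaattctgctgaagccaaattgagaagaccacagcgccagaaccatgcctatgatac
Gstm2: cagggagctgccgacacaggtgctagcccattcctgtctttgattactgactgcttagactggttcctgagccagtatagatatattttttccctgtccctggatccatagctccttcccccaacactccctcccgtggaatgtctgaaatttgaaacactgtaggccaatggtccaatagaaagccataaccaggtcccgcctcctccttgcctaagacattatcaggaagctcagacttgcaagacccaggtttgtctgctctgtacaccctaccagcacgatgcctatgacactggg
The Gsta3 window held TGACTTCGC from 17 to 9 bases before the start site, and the Gstm1 and Gstm2 windows held no match on either strand. The window of the alpha-class Gsta1, searched but not printed, held TGACTTTGC from 30 to 38 bases after the start site. Gsta1 fell with CA averaged over the times, as given below, and the part of a match in any of these differences was not tested. The same pattern of letters was in 12.1% of the 33469 rat promoter windows in the RefSeq table. GCGTG, the core of the element bound by the aryl hydrocarbon receptor, was in 29.7% of them and in none of the 3 printed windows, and the direct repeat 1 element bound by PPARalpha, searched as a pair of AGGTCA half-sites 1 base apart, was in 0.0538% and likewise in none of the 3. A second annotated start of Gsta3 (chr9:31166793-31167092) held GCGTG. A match is a string of letters and not a measured binding site.

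Array medians lay between 25.35 and 187.25 intensity units, so every array was scaled to a median of 99.35, and levels below are scaled intensities. Differences are log2 of the scaled intensity plus 25, tested with limma and Benjamini-Hochberg adjustment over all 12393 probe sets of the fit. Sections of 1 group correlated at 0.929 or more (median 0.971), and no arrays held identical values. The sections of CA rat 4137 (12m) stood apart: in Gstm2 its untagged section was at 1820.7 and its TU section at 4342, while the other 4 untagged CA sections of 12m lay between 4462.1 and 5667.8. Values that leaving this rat out turns or moves are given with and without it. The titles give each untagged section its own rat number, so p-values measure the spread between animals. In whole sections fewer cells of a type and less RNA per cell cannot be told apart. Of the 9 hepatocyte markers tested, 1 rose and 1 fell with CA averaged over the times. Levels are not compared between genes, because each probe set has its own brightness. Gstm1 and Gstm2, and Gsta3 and the other alpha-class genes, have near-identical sequence in parts, so probes may take up RNA of a relative, and their separate values are uncertain to that extent.

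With the offset of 25, Gsta3 had the largest single difference with the drug among the members, at 1m. That rank rests on the offset, since the size of the Gsta3 difference changes with it, as given below. At 1m it was higher in every treated rat than in every untreated rat, with and without DEN, and no difference passed at 5j, 3m, 9m, 12m or 18m. In CA rats of 1m the Gsta3 levels were 28.0, 51.7, 62.7, 70.2 and 77.6, against 1.6, 2.4, 2.5, 5.1 and 25.1 in control rats of 1m. In DEN-CA rats of 1m they were 54.5, 62.6, 65.9, 117.5 and 117.7, against 3.1, 16, 16.4, 16.9 and 37.1 in DEN rats of 1m. The groups did not overlap in either arm, which held for 8.43% of all probe sets in the CA comparison of 1m and 7.91% in the DEN-CA comparison. Gsta3 rose by 1.37 ± 0.31 on the log2 scale in CA rats (SE, limma adjusted p = 0.00053), a 2.58-fold difference on the offset scale. It rose by 1.34 ± 0.31 in DEN-CA rats (adjusted p = 0.00060), a 2.53-fold difference. In these comparisons 14.4% and 16.2% of probe sets passed. At the other times 11.2% (5j), 14.2% (3m), 6.78% (9m), 11.7% (12m) and 6.79% (18m) did in the CA arm, and 10.5% (5j), 14.3% (3m), 6.99% (9m) and 7.04% (12m) in the DEN-CA arm.

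The Gsta3 probe set was dim, and this sets the size of its fold changes. It lay above the 40th percentile of its own array, 67.1 in the median array, on 26 of 148 untagged arrays, while Gstm1, Gstm2 and Gstt1 did so on all 148. At 1m Gsta3 did so in 2 of 5 CA rats and 3 of 5 DEN-CA rats, and in 0 of 5 control and 0 of 5 DEN rats. The filter kept probe sets above that percentile on at least 3 arrays, which Gsta3 met through the groups where it was high. With an offset of 6 the difference at 1m became 2.43 in the CA arm and 2.0 in the DEN-CA arm, and with an offset of 99 it became 0.56 and 0.63, with adjusted p under the threshold each time. Among arrays with suffix B alone the CA difference at 1m was 1.90 (adjusted p = 0.077), where 1 of 5 CA rats and 2 of 5 control rats carried the suffix. Among arrays without it the DEN-CA difference was 0.79 (adjusted p = 0.68), with 1 DEN-CA rat and 2 DEN rats left. Over all other settings, each rat left out included, the adjusted p at 1m was at most 0.040 in the CA arm and at most 0.0047 in the DEN-CA arm.

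At 3m the CA rats had Gsta3 levels of 11.2, 27.0, 28.8, 40.6 and 44.5, against 0.9, 2.2, 5.4, 12.4 and 17.3 in control rats, a difference of 0.75 that did not pass (adjusted p = 0.087) except with an offset of 6 (1.48, adjusted p = 0.028). At 18m the order of the means was turned: CA rats had 50.0, 57.4, 60.9, 94.4 and 152.3, against 56.9, 76.3, 88.5, 210.2 and 255.8 in control rats. The groups overlapped, and the difference of -0.49 did not pass (adjusted p = 0.41). The test of the change in drug effect, 18m less 5j, gave -0.83 ± 0.43 (adjusted p = 0.52), where 0.726% of probe sets passed. The 6 CA contrasts of Gsta3 in order of time were 0.34, 1.37, 0.75, -0.11, -0.34 (-0.51 without rat 4137) and -0.49. Averaged over the 6 times, CA less control was 0.25 ± 0.13 for Gsta3 (adjusted p = 0.098), with 40.2% of all probe sets past the threshold. That average passed without control rat 4036 of 18m (0.29, adjusted p = 0.0496), with an offset of 6 (0.56, adjusted p = 0.017) and with array weights (0.30, adjusted p = 0.042), and in no other setting tried. The 5 DEN-CA contrasts were 0.51 at 5j, 1.34 at 1m, 0.52 at 3m, -0.20 at 9m and 0.00 at 12m, so their average mixes early values above 0 with later ones at or below it. That average was a rise of 0.43 ± 0.14 (adjusted p = 0.0082), where 35.1% of probe sets passed, and among arrays without B it did not pass (0.50, adjusted p = 0.13).

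**Figure D1:**
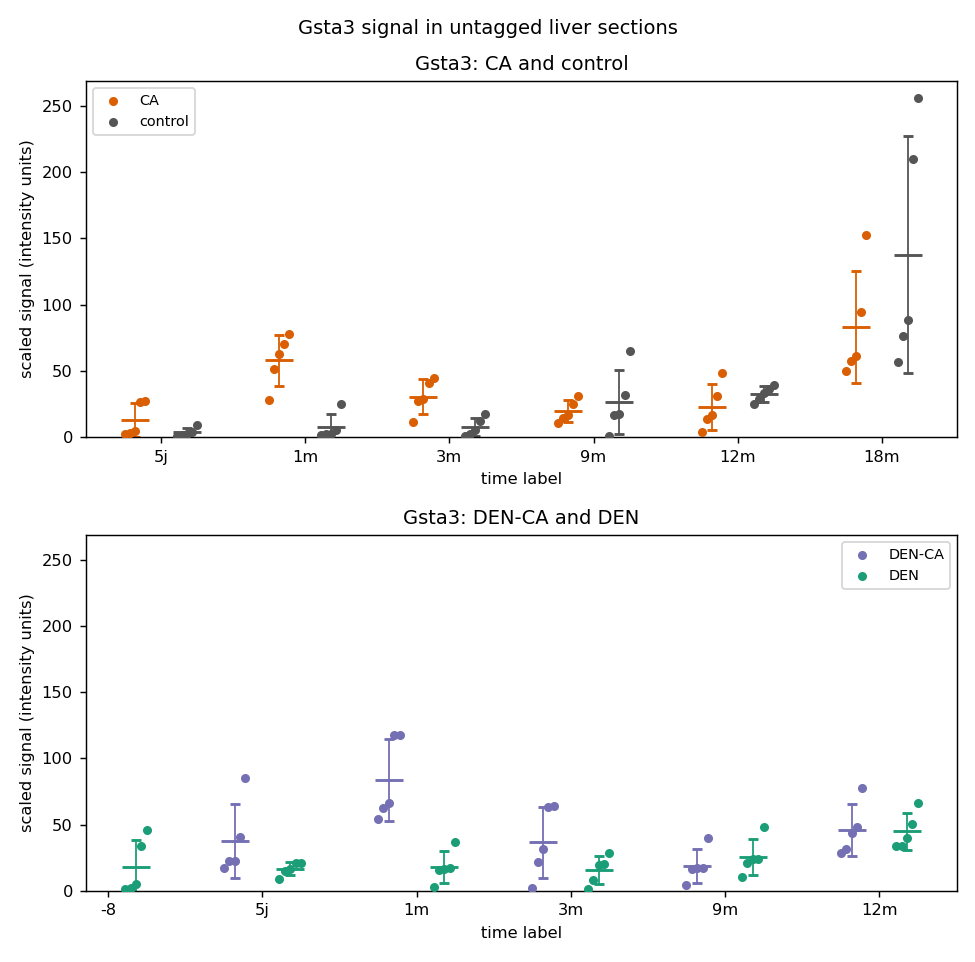
Scaled intensity of Gsta3 by time label, with CA left of control in the upper panel and DEN-CA left of DEN in the lower panel; points are rats, bars are group means and whiskers the SD. The treated rats of 1m lie at 28.0 or more in both panels, and the control rats climb to 56.9 to 255.8 at 18m.

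Macrophage markers moved at the same time point. All 8 tested macrophage markers fell in CA rats of 1m, and their summed level was 3403 to 4959 in CA rats and 5807 to 9871 in control rats of 1m. In DEN-CA rats of 1m 1 of the 8 fell, with sums of 4209 to 6801 in DEN-CA rats and 5233 to 10124 in DEN rats. Pericentral genes fell as well, 3 of 10 in CA rats and 4 of 10 in DEN-CA rats of 1m, with sums over 11 genes of 16219 to 21415 in DEN-CA rats and 26581 to 37589 in DEN rats. None of these markers was at 0 in a rat, and their part in the differences of the 4 genes was not tested. None of the 17 other glutathione S-transferases on the array passed in the CA comparison of 1m (median -0.17, against -0.03 over 8733 genes, of which 476 rose and 805 fell). Gsto1, an omega-class enzyme (0.66), and the membrane-bound Mgst2 (0.57) and Mgst3 (0.58) rose in DEN-CA rats of 1m. In that comparison 1334 of 12393 probe sets were called higher and 673 lower.

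Untreated rats gave the widest contrast in Gsta3. Control rats of 18m had the levels given above, against 1.1, 1.2, 2.7, 3.9 and 9.2 in control rats of 5j. Every control rat of 18m lay above every control rat of 5j, a separation found for 4.96% of probe sets. Gsta3 lay above the 40th percentile of its array in 4 of 5 control rats of 18m and in 0 of 5 of 5j. The mean was 138 ± 89.3 at 18m and 3.62 ± 3.33 at 5j (SD, n = 5 each), and the fitted difference was 2.34 ± 0.31 (adjusted p = 7.4e-09), with 7.22% of probe sets past the threshold. It was 3.73 with an offset of 6 and 1.13 with an offset of 99, passing in both. The control levels in order of time were 1.6 to 25.1 at 1m, 0.9 to 17.3 at 3m, 1.1 to 64.9 at 9m, 24.9 to 39.6 at 12m and 56.9 to 255.8 at 18m. Suffix B was on 4 of 5 control arrays of 5j and on none of 18m. With B as a covariate the difference was 2.44, and among arrays without B, with a single rat of 5j, it was 2.32 (adjusted p = 0.0067, the highest over all settings). Control rats of 18m lay between 5892 and 12821 in summed macrophage markers, against 6285 to 8514 in control rats of 5j, and between 16121 and 26385 in summed pericentral genes, against 27739 to 32827; the part of either in the Gsta3 difference was not tested. Over the same interval Gstm2 was at -0.51 ± 0.18 (adjusted p = 0.063), Gstm1 at -0.08 and Gstt1 at 0.03, none of which passed. Of the cell markers 1 of 8 macrophage genes rose and 1 of 10 pericentral genes fell. The Gstm2 value passed without control rats 4038 (-0.59, adjusted p = 0.042) or 4039 (-0.65, adjusted p = 0.017) of 18m or 4006 of 5j (-0.59, adjusted p = 0.043).

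Gstm1 fell with CA on average, by 0.27 ± 0.08 on the log2 scale over 6 times (adjusted p = 0.0059), and fell by 0.31 ± 0.09 in the DEN-CA arm over 5 times (adjusted p = 0.0038). Of all probe sets 22.5% were called lower in the CA average and 16.3% in the DEN-CA average. The CA average did not pass among arrays without B (-0.28, adjusted p = 0.057), nor the DEN-CA average without scaling (-0.17, adjusted p = 0.34). All 11 single contrasts were below 0, and 2 of them passed. With a rat left out the CA contrasts of 3m and 9m and the DEN-CA contrast of 12m reached 0.13, 0.04 and 0.06. In some settings the CA contrasts of 3m and 9m reached 0.45 and 0.21. The DEN-CA contrasts of 1m, 3m and 9m reached 0.08, 0.14 and 0.14 in 1 setting each. These contrasts therefore give no firm direction. Under other settings the CA contrast of 3m passed without scaling (-1.01, adjusted p = 0.0013) and the DEN-CA contrast of 1m with quantile normalization (-0.44, adjusted p = 0.015). Without scaling 8229 of 12393 probe sets were called lower in the CA contrast of 3m and 51 higher, and the median of all probe sets was -0.71. At 1m CA rats had Gstm1 levels of 3373.1, 3524.3, 4327.0, 4453.5 and 5529.0, against 5448.3, 6152.4, 6722.4, 6777.4 and 7183.4 in control rats. The highest CA rat lay just above the lowest control rat. The mean was 4241 ± 863 in CA rats and 6457 ± 673 in control rats (SD, n = 5 each), and the fall of 0.62 ± 0.20 passed (adjusted p = 0.026). At 5j the DEN-CA rats had 2727.8, 3433.7, 3952.4, 4430.6 and 5038.4, against 4751.8, 4776.5, 4952.4, 7216.9 and 9468.9 in DEN rats. The groups overlapped at their edges, and Gstm1 fell by 0.64 ± 0.20 (adjusted p = 0.026). Of all probe sets 14.4% passed in the CA comparison of 1m and 10.5% in the DEN-CA comparison of 5j.

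Both single-time calls of Gstm1 lay near the threshold, and each was lost in 4 of 10 fits with a rat left out. At 1m the call was lost without CA rats 4122 (-0.56, adjusted p = 0.077) or 4126 (-0.54, adjusted p = 0.085) and without control rats 4011 (-0.58, adjusted p = 0.063) or 4012 (-0.60, adjusted p = 0.053). At 5j it was lost without DEN-CA rats 4085 (-0.52, adjusted p = 0.12) or 4088 (-0.60, adjusted p = 0.059) and without DEN rats 4054 (-0.57, adjusted p = 0.084) or 4057 (-0.48, adjusted p = 0.16). Without scaling the difference at 1m was -0.56 (adjusted p = 0.46), the highest p of its settings, and it did not pass among arrays with or without B alone (adjusted p = 0.38 and 0.14). The difference at 5j did not pass among arrays with B (adjusted p = 0.11) or without it (0.29, the highest p of its settings), with array weights (adjusted p = 0.055) or when only its own groups were fitted (adjusted p = 0.088). The pericentral sum, from 11 genes expressed around the central vein, was 16332 to 22418 in CA rats of 1m and 24316 to 35631 in control rats, and 13538 to 20275 in DEN-CA rats of 5j and 18658 to 30433 in DEN rats; its part in the Gstm1 differences was not tested.

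Gstm2 fell on average in both arms. It fell by 0.30 ± 0.07 with CA over 6 times (adjusted p = 0.00035) and by 0.37 ± 0.08 with DEN-CA over 5 times (adjusted p = 6.9e-05), where the value without scaling was -0.22 (adjusted p = 0.19). Lower called values were found for 22.5% of probe sets in the first comparison and 16.3% in the second. The single CA contrasts were -0.18 at 5j, -0.34 at 1m, -0.31 at 3m, -0.40 at 9m, -0.17 at 12m and -0.40 at 18m, and none passed alone. The 12m value turned to 0.12 without rat 4137 (adjusted p = 0.77), so that contrast gives no direction. Under other settings Gstm2 passed at 3m without scaling (-1.25, adjusted p = 0.00015) and with quantile normalization (-0.40, adjusted p = 0.048), and with array weights at 9m (-0.42, adjusted p = 0.039) and 18m (-0.60, adjusted p = 0.0012). Without scaling 8229 of 12393 probe sets were called lower at 3m and 51 higher, and the median of all probe sets was -0.71. The highest adjusted p among the 6 CA contrasts was 0.63, at 12m. The DEN-CA contrasts were -0.33, -0.29, -0.48, -0.51 and -0.24 in the same order to 12m. At 3m DEN-CA rats had Gstm2 levels of 3144.9, 3282.6, 3626.1, 3882.7 and 4224.2, against 4292.2, 5049.0, 5132.9, 5350.1 and 5475.4 in DEN rats. At 9m DEN-CA rats had 3025.9, 3484.4, 3572.5, 3634.3 and 4414.0, against 4931.3, 4947.0, 5005.7, 5208.9 and 5607.0 in DEN rats. The groups did not overlap at 3m or 9m, as for 10.3% and 9.21% of all probe sets, yet the adjusted p was 0.055 at 3m and 0.064 at 9m. Of 12 other settings that left out no single rat, 5 brought the 3m contrast past the threshold (lowest adjusted p = 0.0080) and 3 the 9m contrast (lowest adjusted p = 0.0041), and quantile normalization did so at 1m (-0.42, adjusted p = 0.036). The 3m contrast also passed without DEN-CA rat 4098 (-0.54, adjusted p = 0.040) or DEN rat 4066 (-0.54, adjusted p = 0.041), and the 9m contrast without DEN-CA rat 4103 (-0.58, adjusted p = 0.043). The average over the CA times was -0.32 to -0.25 when each rat was left out in turn and passed every time, with -0.25 without rat 4137 (adjusted p = 0.0012). The pericentral sum was 17653 to 21201 in DEN-CA rats and 21790 to 31470 in DEN rats of 3m, without overlap, and 15959 to 23518 in DEN-CA rats and 23070 to 30188 in DEN rats of 9m. Of 10 pericentral genes none rose and 4 fell with CA averaged over the times (median -0.19), and 1 rose and 4 fell with DEN-CA (median -0.10). Most periportal genes fell in these averages too, more of them than pericentral genes in both arms, as counted below. The part of either set of genes in the Gstm2 differences was not tested.

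Gstt1 was higher with the drug after DEN. Over 5 times it rose by 0.31 ± 0.11 in DEN-CA rats (adjusted p = 0.014), and higher called values were found for 18.8% of probe sets. At 3m DEN-CA rats had Gstt1 levels of 222.3, 351.5, 396.5, 436.6 and 481.0, against 214.1, 218.1, 232.6, 250.2 and 279.4 in DEN rats. At 1m DEN-CA rats had 244.3, 417.7, 422.3, 464.1 and 504.5, against 200.6, 234.3, 243.4, 352.8 and 449.6 in DEN rats. Of the 5 DEN-CA rats 4 lay above all DEN rats at 3m and 2 at 1m, and neither contrast passed alone (0.57, adjusted p = 0.090, at 3m and 0.46, adjusted p = 0.19, at 1m). The 3m contrast passed without DEN-CA rat 4098 (0.74, adjusted p = 0.029), with array weights (0.64, adjusted p = 0.030) and when only its own groups were fitted (adjusted p = 0.032). In the CA arm the average was 0.16 ± 0.10 (adjusted p = 0.17), and the contrasts ranged between -0.12 at 18m and 0.43 at 3m. The CA contrast of 3m passed without CA rat 4127 (0.67, adjusted p = 0.047) and without arrays of extreme median (0.95, adjusted p = 0.032). Among arrays with B it was 1.26, with 1 CA rat and 2 control rats left. The CA contrast of 5j passed among arrays with B (0.75, adjusted p = 0.047), with 2 CA rats and 4 control rats left. With the B suffix as a covariate the DEN-CA average was 0.22 and no longer passed (adjusted p = 0.067), while the CA average was 0.23 and passed (adjusted p = 0.027), so the calls of the 2 arms changed places. Over all settings the adjusted p of the DEN-CA average reached 0.57, among arrays without B.

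**Figure D2:**
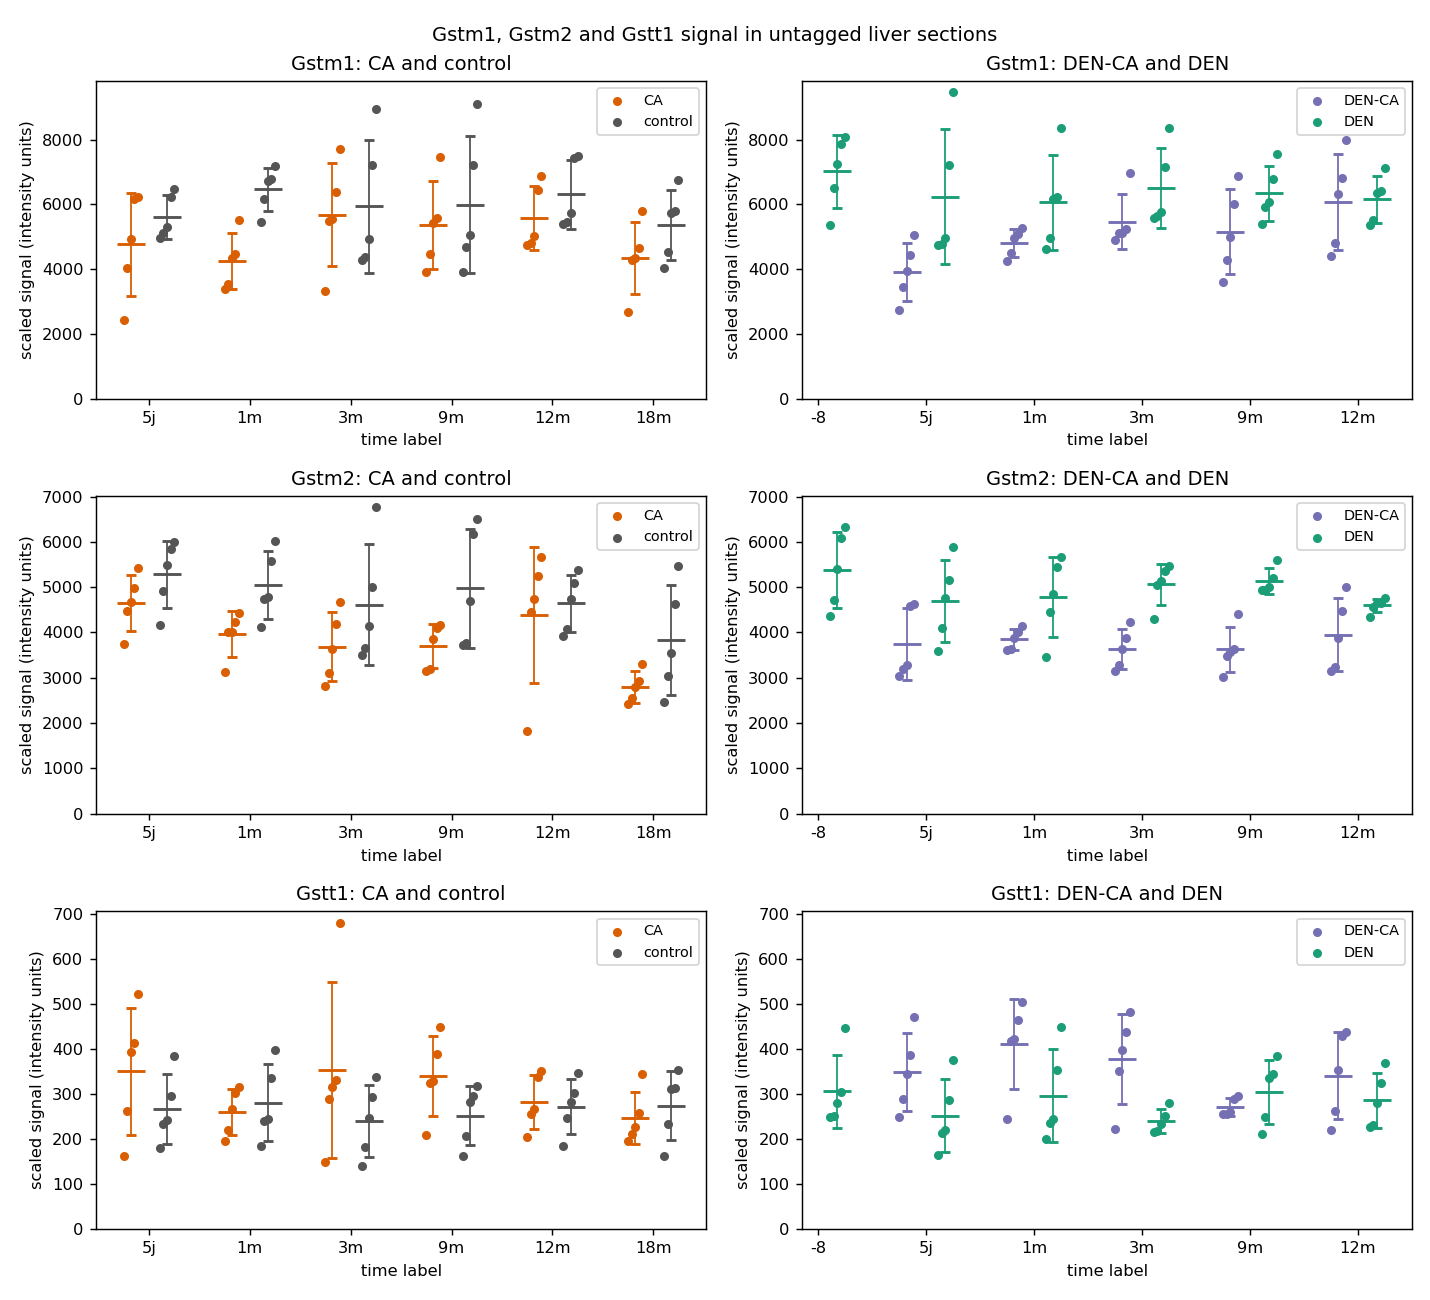
Scaled intensity of Gstm1, Gstm2 and Gstt1 by time label, with CA left of control and DEN-CA left of DEN; points are rats, bars are group means and whiskers the SD. Gstm2 of DEN-CA rats lies at or under 4224.2 at 3m and 4414.0 at 9m, below all DEN rats of those times.

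**Figure D3:**
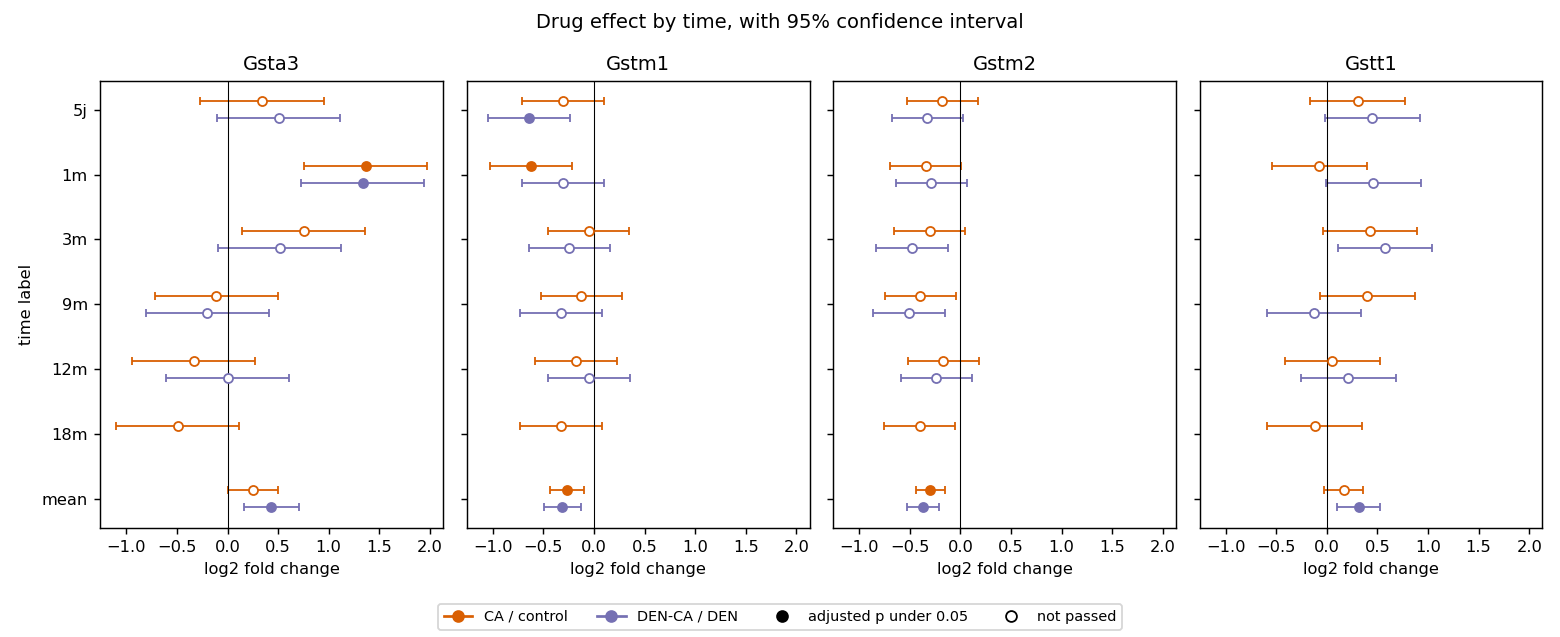
Log2 difference of CA from control and of DEN-CA from DEN at each time and averaged, with its 95% confidence interval; filled points have an adjusted p under 0.05. For Gsta3 the points of 1m stand at 1.37 and 1.34, and for Gstm2 every point lies below 0, of which the CA point of 12m turns to 0.12 without rat 4137.

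The drug effect after DEN less the drug effect without DEN, over the 5 shared times, was 0.03 for Gsta3, -0.06 for Gstm1, -0.09 for Gstm2 and 0.09 for Gstt1. None of the 4 passed, with 95% intervals of -0.36 to 0.41, -0.31 to 0.20, -0.31 to 0.13 and -0.21 to 0.39, and 0.0403% of probe sets passed. DEN less control, averaged over 5j to 12m, was 0.31 ± 0.14 for Gsta3 (unadjusted p = 0.026, adjusted p = 1.00), 0.05 for Gstm1, -0.00 for Gstm2 and 0.07 for Gstt1. In that comparison 0.0161% of probe sets passed, and 501 had an unadjusted p under 0.05. Of the members, none passed at -8, 5j, 1m, 3m, 9m or 12m either, where 0.307%, 0.0403%, 0%, 0.00807%, 0% and 0% of probe sets did (548 had an unadjusted p under 0.05 at 1m, 458 at 9m and 332 at 12m). The CA group labelled 18 was set against the control rats of 18m: Gsta3 levels were 32.0 at the lowest, 98.2 at the median and 222.4 at the highest in the CA group, with 5 of the 6 rats within the control range, and differed by -0.19. Gstm1 differed by 0.17, Gstm2 by -0.01 and Gstt1 by 0.40 (adjusted p = 0.21). None of the 4 passed, where 23.2% of probe sets did.

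Among the rev groups 1 difference of the 4 genes passed, in Gstm2. CA rats of 18rev had Gstm2 levels of 3803.2, 4020.9, 4200.9 and 4562.0, against 2411.0, 2542.1, 2788.2, 2921.4 and 3313.7 in CA rats of 18m. All rev rats lay above all CA rats of 18m, as in 16.3% of probe sets. CA rats of the group labelled 18 lay between 3084.6 and 4249.9, which overlapped the rev rats, and that pair was not tested. The mean was 4147 ± 321 in the rev rats (SD, n = 4) and 2795 ± 352 in the CA rats of 18m (SD, n = 5), and Gstm2 rose by 0.57 ± 0.19 (adjusted p = 0.027), where 14.7% of probe sets passed. The call was lost without rev rats 4146 (0.56, adjusted p = 0.0504), 4148 (0.52, adjusted p = 0.089) or 4149 (0.58, adjusted p = 0.0503) and without CA rats 4145 (0.54, adjusted p = 0.057) or 4150 (0.52, adjusted p = 0.072) of 18m. Without scaling the difference was 0.16 (adjusted p = 0.74, the highest of its settings), and among arrays without B the adjusted p was 0.051. Control rats of 18rev had 2944.6, 3399.3 and 5520.3, which spans all CA rats of 18rev, and CA less control within 18rev was 0.12. Drug effect with rev less drug effect without rev was 0.52 ± 0.28 for Gstm2 in the CA arm (adjusted p = 0.47, 1.46% of probe sets called) and 0.48 ± 0.25 in the DEN-CA arm (adjusted p = 0.38, 2.3% called).

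Beside the Gstm2 difference, 5 of 8 macrophage markers rose in CA rats of 18rev against CA rats of 18m, with sums of 8780 to 12107 in the rev rats and 5904 to 7030 in the CA rats of 18m. Of 10 pericentral genes 4 rose and 1 fell, and their sums were 24380 to 27246 in the rev rats and 13646 to 21696 in the CA rats of 18m. The part of these cell markers in the Gstm2 difference was not tested. Gstm1 was at 0.46 ± 0.22 in the same comparison (adjusted p = 0.14).

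Gsta3 in CA rats of 18rev was at 34.9, 59.0, 78.0 and 93.2, against 105.2, 108.7 and 153.8 in control rats of 18rev. The groups did not overlap, as in 7.61% of probe sets, and the difference of -0.72 ± 0.37 did not pass (adjusted p = 0.54), where 0.734% of probe sets did. DEN-CA rats of 12rev had Gsta3 levels of 17.6, 24.4, 32.1, 43.8 and 52.5, against a lowest of 29.1, a median of 51.2 and a highest of 256.9 in DEN rats of 12rev. The groups overlapped, and the difference of -0.78 ± 0.29 had an unadjusted p of 0.0088 and an adjusted p of 0.83, with 0.121% of probe sets past the threshold. Against DEN-CA rats of 12m, where 12.8% of probe sets passed, DEN-CA rats of 12rev differed by -0.26 for Gsta3, -0.15 for Gstm1, 0.20 for Gstm2 and 0.07 for Gstt1, and none of the 4 passed. Against control rats of 12rev, DEN rats of 12rev were at 0.63 for Gsta3, -0.46 for Gstm1, -0.45 for Gstm2 and -0.16 for Gstt1, all with an adjusted p of 1.00, where 0.00807% of probe sets passed.

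**Figure D4:**
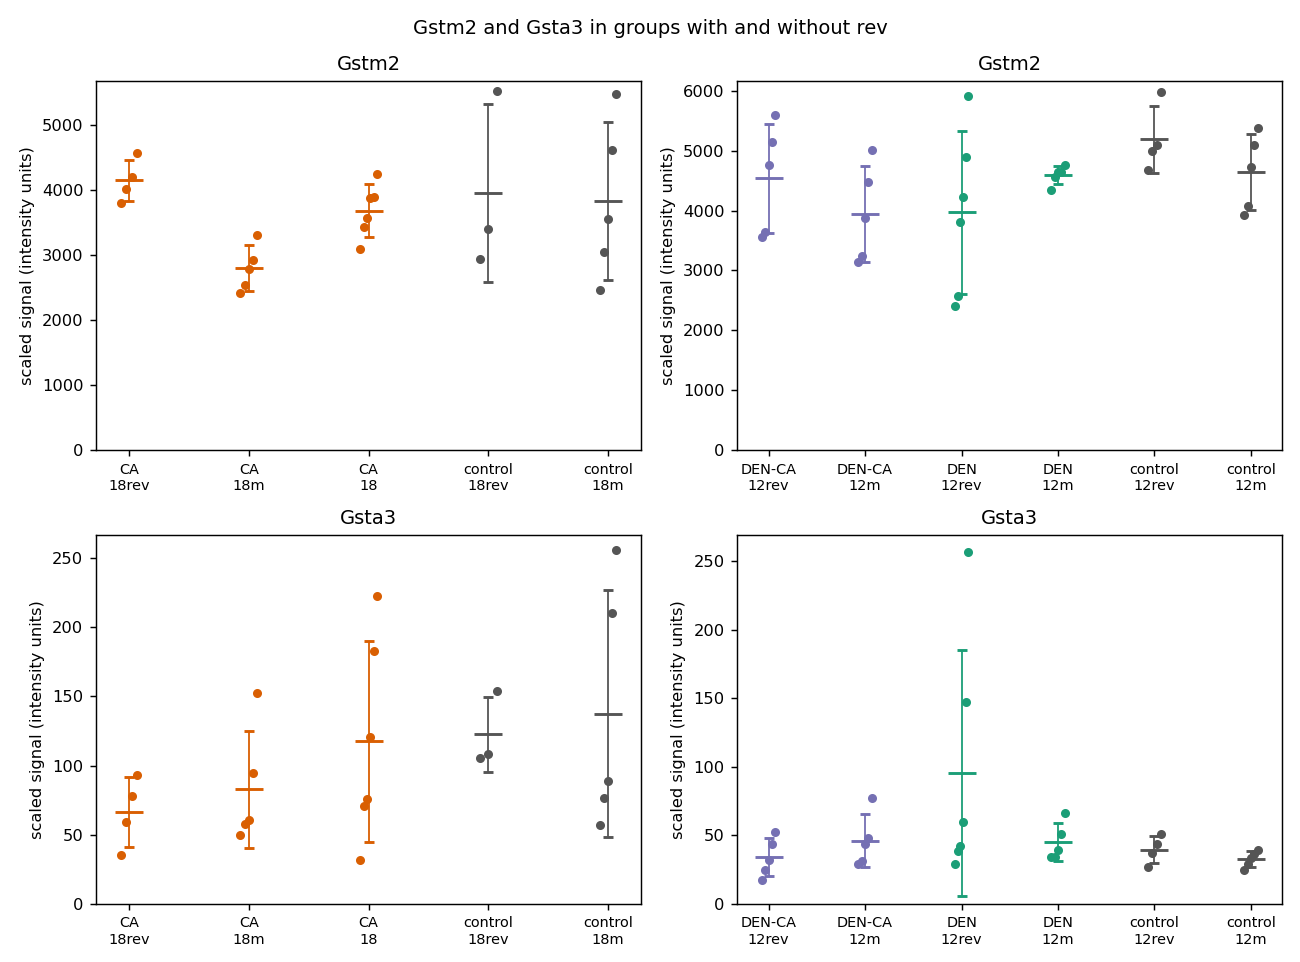
Scaled intensity of Gstm2 and Gsta3 in the rev groups and the groups without rev, with the drug groups left of their controls; points are rats, bars are group means and whiskers the SD. Gstm2 of CA rats of 18rev (3803.2 to 4562.0) lies above CA rats of 18m (2411.0 to 3313.7) and overlaps the CA group labelled 18 (3084.6 to 4249.9). Gsta3 of control rats of 18rev lies above CA rats of 18rev.

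In the TU sections, compared with the untagged section of the same rat, Gstm2 was lower in both arms and Gstt1 was lower in the DEN-CA arm. These tests ran over 11566 probe sets, on 1 difference per rat. In the 7 DEN-CA rats Gstm2 was 812 at the lowest, 1588 at the median and 3093 at the highest in TU sections, against 3142, 3572 and 5013 in untagged sections. The TU and untagged sections did not overlap, and Gstm2 was lower in TU in 7 of 7 rats. It fell by 1.22 ± 0.26 (adjusted p = 0.0017), with values of -1.38 to -1.10 when each rat was left out. Lower called values were found for 18% of probe sets, and called values in either direction for 29.6%.

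In the 9 CA rats Gstm2 was 675 at the lowest, 1658 at the median and 4342 at the highest in TU sections, against 1821, 3314 and 5246 in untagged sections. It was lower in TU in 8 of 9 rats and fell by 0.96 ± 0.23 (adjusted p = 0.034), where 3.74% of probe sets were called and 2.88% called lower. The exception was rat 4137, whose TU section exceeded its untagged section by 1.24. Without that rat Gstm2 fell by 1.24 (adjusted p = 8.6e-06). Without any 1 of the other 8 rats (4141, 4142, 4143, 4144, 4150, 4151, 4152 and 4156) the difference was -1.01 to -0.86 and no longer passed, with an adjusted p between 0.070 and 0.11. It also did not pass without scaling (-0.60, adjusted p = 0.092), with quantile normalization (-0.78, adjusted p = 0.070) or without the filter (-0.96, adjusted p = 0.056). The number of called probe sets moved with the rats, at 432 with all rats, 2504 without rat 4137 and 1 to 4 without any other.

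Gstt1 in the DEN-CA rats was 35.2 at the lowest, 143 at the median and 256 at the highest in TU sections, against 221, 263 and 365 in untagged sections. The ranges overlapped between rats, but Gstt1 was lower in TU in 7 of 7 rats and fell by 0.97 ± 0.20 (adjusted p = 0.0014), with -1.07 to -0.75 when each rat was left out. In the CA rats the Gstt1 difference was -0.12 ± 0.17 (adjusted p = 0.75), and -0.26 without rat 4137. The DEN-CA difference less the CA difference was -0.85 ± 0.26 for Gstt1 (unadjusted p = 0.0040, adjusted p = 0.19), in a comparison where no probe set passed with limma and 1812 had an unadjusted p under 0.05.

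Gsta3 and Gstm1 did not pass in TU sections. Gsta3 was higher in TU in 6 of 9 CA rats, with 20.6 at the lowest, 98.4 at the median and 266 at the highest in TU sections, against 14.0, 57.4 and 152 in untagged sections. The difference was 0.67 ± 0.28 (adjusted p = 0.17) and 0.84 without rat 4137 (adjusted p = 0.036). In DEN-CA rats Gsta3 was higher in TU in 5 of 7 rats (0.56 ± 0.32, adjusted p = 0.21), and its TU levels reached 187.1 in rat 4106 and 263 in rat 4111, against 48.2 and 52.5 in their untagged sections. Gstm1 differed by -0.22 in the CA rats and -0.27 in the DEN-CA rats (adjusted p = 0.44 and 0.27).

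**Figure D5:**
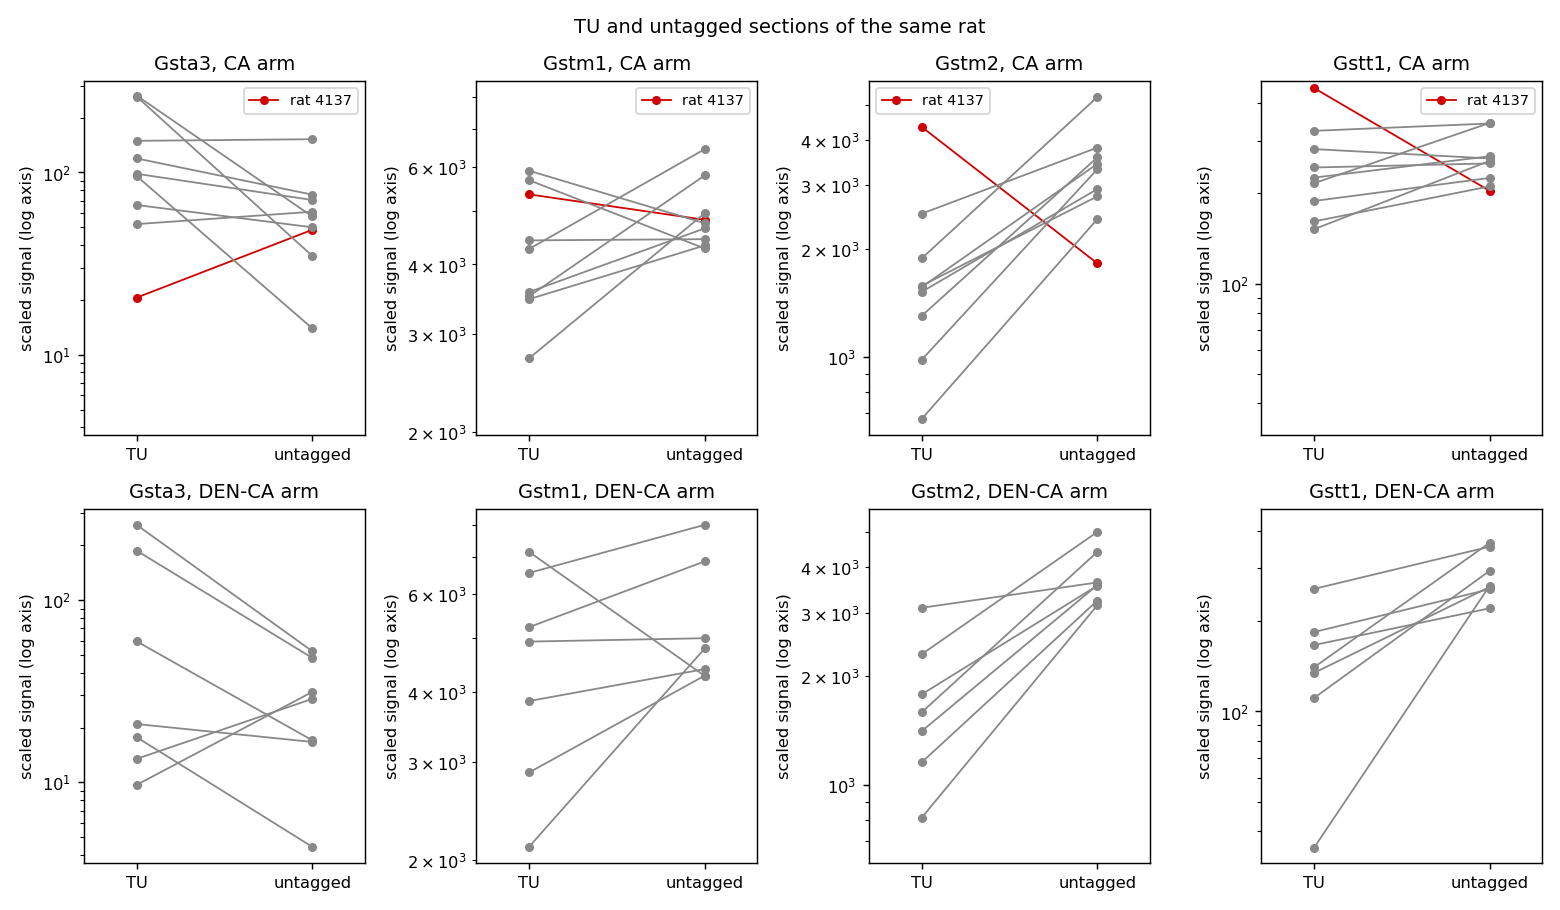
Scaled intensity on a log axis in TU sections (left) and the untagged section of the same rat (right), joined by a line per rat, for the CA and DEN-CA arms; several TU sections of a rat are averaged on the log2 scale and rat 4137 is red. Gstm2 and Gstt1 fall on the TU side in all 7 DEN-CA rats, and rat 4137 runs the other way in the CA arm.

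Cell markers moved in the TU sections as well. Of 10 pericentral genes 9 fell in DEN-CA TU sections, with a sum over 11 genes of 7035 to 9451 in TU sections of 9m, against 15959 to 23518 in untagged sections of 9m. Of 8 macrophage markers 6 fell there, with sums of 2885 to 3414 in TU sections and 4475 to 6220 in untagged sections of 9m. The counts cover all DEN-CA rats with TU sections. The sums cover only 9m and include untagged sections of rats without a TU section. Of the 9 hepatocyte markers 2 fell (median 0.01), and of 8 stellate cell and fibroblast markers 3 rose and 1 fell. In the CA arm 3 of 10 pericentral genes and 3 of 8 macrophage markers fell, where 2.88% of all probe sets were called lower. The number of calls in that arm moved with the rats, as given above. No marker was at 0, and the part of these markers in the Gstm2 and Gstt1 differences was not tested.

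In the PERI sections Gstm1 was at -0.30, Gstm2 at -0.01 and Gstt1 at 0.06 against the untagged section of the same rat over 5 rats, and Gsta3 was below the filter. None passed. Rat 4137 again stood apart, with Gstm2 at 4330 in its PERI section and 1820.7 in its untagged section. Without it Gstm1 was at -0.42, Gstm2 at -0.32 and Gstt1 at -0.19, so the Gstm2 value moved and the Gstt1 value turned, and none passed (adjusted p = 0.91 each). No probe set passed in the comparison of all 5 rats with limma, and 283 had an unadjusted p under 0.05.

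The other glutathione S-transferases moved in both directions with the drug. Of 17 tested, 6 rose and 5 fell with CA averaged over the times (median -0.03, against -0.01 over 8733 genes, of which 1640 rose and 1976 fell). The risers with the smallest p were the mu-class Gstm5 (0.44 ± 0.06, adjusted p = 1.1e-10), Gsto1 (0.43), the theta-class Gstt3 (0.76) and Mgst2 (0.34). The fallers included the alpha-class Gsta1 (-0.29), Gsta4 (-0.29) and Hpgds (-0.29), which makes prostaglandin D. In DEN-CA rats 6 rose and 2 fell, with Gstt3 at 1.09, Gstm5 at 0.43 and Gsto1 at 0.43 (median 0.03, against 0.00 over all genes, of which 1842 rose and 1425 fell). Gstm4, of the mu class, also rose in both arms (0.19 in CA rats and 0.33 in DEN-CA rats), while Gstm3 and Gstm7 of that class and Gstt2 of the theta class did not pass in either. In DEN-CA TU sections 2 of the 17 rose and 8 fell (median -0.40, against -0.02 over 8325 genes, of which 1054 rose and 1486 fell), led by Gstm7 (-1.77 ± 0.23, adjusted p = 0.00027), Gsta4 (-1.51) and Gsta1 (-1.05), while Gstm3 rose (1.20). In CA TU sections Gstm7 fell (-0.97) and Gstm3 rose (0.95), in the comparison whose number of calls moved with the rats.

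Of 20 genes of glutathione synthesis and cycling, 5 rose and 6 fell with CA and 4 rose and 5 fell with DEN-CA. Gpx2, a glutathione peroxidase, rose by 0.92 ± 0.08 in CA rats and 1.18 in DEN-CA rats. Cbs, which starts the route to cysteine, fell by 0.82 and 0.70, and Oplah, which recycles oxoproline, fell by 0.64 and 0.55. In DEN-CA TU sections 3 rose and 7 fell, led by the peroxidase Gpx1 (-1.15), Glrx (-0.80) and Cbs (-1.38). Of 18 genes listed as targets or partners of the antioxidant regulator NRF2, 7 rose and 3 fell with CA and 8 rose and 1 fell with DEN-CA. Me1, malic enzyme, led them (2.22 in CA rats and 2.26 in DEN-CA rats), before Aldh1a1 (1.24 and 1.23), and Nfe2l2, which encodes NRF2 itself, fell by 0.42 in CA rats and 0.41 in DEN-CA rats. Me1 is also a textbook PPARalpha target. In control rats of 18m against 5j, 6 of the 18 rose and none fell (median 0.22, against -0.02), among them Aldh1a1 (2.31), Hmox1 (1.08), Abcc3 (0.93) and Nqo1 (0.67). Of all 12393 probe sets 486 were called higher in that comparison and 409 lower. Of 16 PPARalpha targets 9 rose and 3 fell with CA (median 0.59) and 8 rose and 3 fell with DEN-CA (median 0.43). Of 14 xenobiotic receptors and their targets 1 rose and 4 fell with CA, and none rose and 5 fell with DEN-CA. In DEN-CA TU sections 12 fell, where 18% of all probe sets were called lower. All 8 macrophage markers fell with CA and with DEN-CA averaged over the times, as did 7 and 9 of 10 periportal genes. Over all probe sets 22.5% were called lower with CA and 16.3% with DEN-CA. With CA 3 of 8 stellate cell and fibroblast, 2 of 5 endothelial and 2 of 6 lymphocyte markers fell, 1 of 5 cholangiocyte and oval cell markers rose, and none of 3 pancreatic acinar markers or 7 cell cycle genes passed.

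Ordered by level, the 30 untagged groups formed a continuum for each gene. Gsta3 was highest in control rats of 18m (138 ± 89.3), control rats of 18rev (123 ± 27.1), CA rats of the group labelled 18 (117 ± 72.9), DEN rats of 12rev (95.7 ± 89.9) and DEN-CA rats of 1m (83.6 ± 31.3), and lowest in control rats of 5j (3.62 ± 3.33). Gstm1 ran between 7016 in DEN rats of -8 and 3917 in DEN-CA rats of 5j, Gstm2 between 5380 in DEN rats of -8 and 2795 in CA rats of 18m, and Gstt1 between 411 in DEN-CA rats of 1m and 239 in DEN rats of 3m. Of the 29 gaps between neighbours in the order, none exceeded the larger SD of the pair for Gsta3, Gstm1 or Gstt1. For Gstm2 1 did, the gap above the lowest group.

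Likeness was measured as Pearson r over the 30 group means among 8733 genes, as a description of groups that share arrays, scaling and animals of like treatment. Closest to Gsta3 were Prlr, the prolactin receptor (0.88), Cyp2a1, a steroid-hydroxylating cytochrome (0.86), Igfbp2, which binds insulin-like growth factors (0.84), Slc7a7, an amino acid carrier (0.81), and Abcc3, an exporter of conjugates (0.80). Closest to Gstm2 were Afm (0.84) and Agt (0.84), both secreted plasma proteins, Sec62 (0.84), Asrgl1 (0.83) and Nrep (0.83). Closest to Gstm1 were Apoc3 (0.80), Lyz2 (0.79), Serpina3m (0.79), Apoa1 (0.78) and Cpb2 (0.78), and to Gstt1 Psmc3 (0.74), Perp (0.73), Mrpl32 (0.72), Synj2bp (0.72) and Cops5 (0.71). Between members r was 0.62 for Gstm1 and Gstm2, which lie next to each other on chromosome 2, and -0.61 for Gsta3 and Gstm2. Over the deviations of the 148 rats from their group means it was 0.58 and -0.34 for these pairs, and 0.54 for Gstm1 and Gstt1, whose group means gave -0.18.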

How the data were processed

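Liver sections were hybridised to Affymetrix arrays. The authors deposited 1 table of intensities, a signal per probe set and array on a linear scale, made with MAS5 per the submitters' processing notes, with no version given there. Each array was scaled to the median of the array medians (99.35), 25 was added and log2 taken. Probe sets above the 40th percentile of their array on at least 3 arrays were kept: 12393 for untagged, 11566 for TU and 10174 for PERI sections. All 30 untagged groups entered 1 limma fit (lmFit, eBayes with trend, 118 residual degrees of freedom). TU and PERI sections were tested on differences within a rat, paired by the rat number in the titles, which marks the same animal. Adjustment was Benjamini-Hochberg at 0.05. Of 15922 probe sets 12783 had 1 gene, 312 several and 2827 none. The scripts were tested on simulated data.

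The members and the 15 gene lists were chosen with earlier results of these data known. Named genes were the 4 members, at most 4 genes per list and mean or TU contrast by smallest p, and the 5 genes most like each member; other named genes were chosen after their values were seen. Alternatives were other offsets, no scaling, quantile normalization, other filters, the B suffix, array weights, fits of only the groups compared, arrays of extreme median left out, each rat left out in turn and, for TU, other treatments of the rat. R 4.3.3, limma 3.58.1, Python 3.11.15 and matplotlib 3.10.9 were used. The number of arrays limits the precision.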

Additional observations from a re-analysis of the deposited data

Results flagged for a closer look

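In 8 of 124 groups tested, 1 rat lay far from the others of its group, where chance sets apart about 5% of groups. Gsta3 in control rats of 1m was 25.1 in rat 4015 and 1.6 to 5.1 in the other 4. Gstm1 in DEN-CA rats of 3m was 6978.4 in rat 4096 and 4900.0 to 5234.1 in the others, and in control rats of -8 it was 4484.5 in rat 4005 and 6000.0 to 6449.0 in the others. Gstm2 in CA rats of 12m was 1820.7 in rat 4137 and 4462.1 to 5667.8 in the others, and in CA rats of 1m it was 3119.6 in rat 4125 and 4007.7 to 4437.4 in the others. Gstt1 in DEN-CA rats of 1m was 244.3 in rat 4090 and 417.7 to 504.5 in the others. In the CA arm the TU section of rat 4137 exceeded its untagged section by 1.242 for Gstm2, against -1.799 to -0.602 in the other 8 rats, and by 1.049 for Gstt1, against -0.671 to 0.095.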

How the results depend on the processing

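No called difference of the 4 genes changed sign under any setting tried. The values below are log2 differences. Gsta3 with CA averaged over times was 0.56 with an offset of 6 and 0.30 with array weights, both passing, and 0.22 to 0.29 when each rat was left out. With DEN-CA it was 0.50 among arrays without the B suffix and did not pass. Gstm1 with CA was -0.28 without B (adjusted p = 0.057), and with DEN-CA -0.17 without scaling. Gstm2 with DEN-CA was -0.22 without scaling (adjusted p = 0.19). Gstt1 with CA was -0.029 without scaling, 0.23 with B as a covariate and 0.27 without the 8 arrays of extreme median, the last 2 passing; with DEN-CA it was 0.22 with B as a covariate and 0.16 without B, neither passing. The mean Gstm2 difference of DEN was 0.018 with quantile normalization, 0.046 without B and -0.022 to 0.027 with each rat left out. The drug effect after DEN less that without was, for Gsta3, -0.15 with an offset of 6, -0.015 with B as a covariate and -0.017 to 0.082 with each rat left out; without scaling it was 0.36 for Gstm1 and 0.32 for Gstm2; for Gstt1 it was -0.079 with B as a covariate, -0.045 without B and -0.067 without arrays of extreme median.

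For TU sections in the CA arm, Gstm2 was -0.60 without scaling, -0.78 with quantile normalization, -0.96 without a filter and -1.01 without the rev rats, none passing, and -1.24 to -0.86 with each rat left out. Gstm1 was 0.14 without scaling and 0.037 with quantile normalization, Gstt1 0.21 without scaling, and Gsta3 0.47 to 0.84 with each rat left out. The arm difference with each rat left out was -0.33 to 0.10 for Gsta3, -0.22 to 0.10 for Gstm1 and -0.42 to 0.022 for Gstm2. With the rat as a random replicate block (correlation 0.132) the Gsta3 arm difference was 0.015. With no replicate block the pairing by rat changed no other call: Gstm2 and Gstt1 in the DEN-CA arm were -1.22 and -0.97 (adjusted p = 0.0014 each).

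Called probe sets were 4346 for DEN-CA averaged, against 2393 without scaling and 2095 without B; 2 for DEN, against 58 without B; 5 for the difference of drug effects, against 1 to 28; 432 for TU in the CA arm, against 112 with quantile normalization, 874 with the random block, 1 without a filter and 1 without the rev rats; 3418 for TU in the DEN-CA arm, against 1450 without scaling; and 0 for the arm difference, against 21 without scaling. Without scaling the median of all probe sets was -0.18 for CA, 0.12 for DEN-CA and 0.28 for TU in the CA arm, and the share of higher calls was 9.94%, 82.6% and 96.7%, against 43.9%, 53.6% and 22.9% with scaling; for TU in the DEN-CA arm it was 39.1% with scaling, 25.2% without and 49.6% with quantile normalization. The causes were not tested. Averaging probe sets gives the same values, since each gene has 1, and Gsta3 has no value in the untagged fit with a filter at the 70th percentile. Gsta3 lay near the floor of the arrays, so its signal over background limits its fold changes.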
